A study of Mus musculus with 2 samples.

Results

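The Notch receptors Notch1, Notch2, Notch3 and Notch4, the Notch ligands Jag1, Jag2 and Dll4, and the target genes Hes1, Hey1 and Heyl were read on 2 mouse arrays. The members were chosen by name: every spot that was not a control and whose gene name in the array design was one of these symbols was taken. This gave 10 of the 30153 genes on the array, by 12 probes of 60 bases. Notch1 and Notch2 had 2 probes each, and the other 8 genes had 1 probe each.

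RNA of mature hepatocytes (MHs) was compared with RNA of Sox9+EpCAM- cells, the fraction in which hepatocytes that also express the biliary factor Sox9 are found after chronic injury. MHs came from healthy livers of Sox9-EGFP mice, in which green fluorescent protein (GFP) reports Sox9, and were collected after 2 steps of collagenase perfusion by low-speed centrifugation and a Percoll gradient. Sox9+EpCAM- cells were sorted by FACS as GFP+EpCAM- cells from Sox9-EGFP mice fed a diet with DDC (3,5-diethoxycarbonyl-1,4-dihydro-collidine), which injures the bile ducts. The labels call both samples male and give neither the number of mice nor, for the array, the time on the diet. The way of isolation, the sort and the injury changed together, so their shares in any difference cannot be told apart.

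Cy3-labelled RNA of each sample was hybridised to 1 Agilent array, and both arrays lay on 1 slide. Without replicates, no SD and no test between conditions can be given, and the number of arrays is what limits the precision. Of the 43020 spots for genes, 27523 passed the scanner's test for signal well above background in MHs and 32158 did so in Sox9+EpCAM- cells, and 0 were saturated. Intensities are given as deposited, each with the error that the Feature Extraction software computed for the spot. For the brighter Notch1 and Notch2 probes this error was 0.144 on the log2 scale on both arrays. There it followed the intensity and was not a measured spread between spots. Differences are log2 values of Sox9+EpCAM- minus MH after each array was divided by the 75th percentile of its intensities, which was 741 for MHs and 1110 for Sox9+EpCAM- cells. Hence a probe of equal intensity on both arrays has a difference below 0. Over 260 probes printed at least 8 times, the SD of this difference between spots had a median of 0.09 and a 95th percentile of 0.25 on the log2 scale. Neither that spread nor the software error covers variation between mice.

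The labels were set against marker genes first. Xist, the RNA that coats the inactive X chromosome in females, gave 1940 in MHs and 16.1, not well above background, in Sox9+EpCAM- cells. The Y-linked gene Ddx3y gave 8.43 in MHs, not well above background, and 642 in Sox9+EpCAM- cells, and Kdm5d, Eif2s3y and Uty had the same pattern. These signals go against the label of the MH sample, and sex and condition cannot be told apart in any difference given here. Epcam, the surface protein whose absence defined the sort, had an intensity of 139 in MHs and 2770 in Sox9+EpCAM- cells, a difference of 3.73 (13.3-fold higher), which at the level of RNA goes against the gate. Sox9 was not well above background in MHs (8.52, geometric mean of 10 spots) and was 60.2 in Sox9+EpCAM- cells (likewise), at least 1.45-fold higher. The hepatocyte genes Alb and Hnf4a were far above background on both arrays, with intensities of 207000 and 4990 in MHs and 170000 and 6360 in Sox9+EpCAM- cells.

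Notch signalling passes between touching cells. A ligand of the Jagged or Delta family on one cell pulls on a Notch receptor on its neighbour, the receptor is cleaved by an ADAM protease and by gamma-secretase, and its intracellular domain joins RBPJ and a Mastermind protein on DNA to switch on targets such as the Hes and Hey repressors. In the liver, Jag1 and Notch2 are best known for the formation of bile ducts, which are too few when either gene is mutated in Alagille syndrome, while Notch1, Notch4 and Dll4 are prominent in endothelial cells.

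The probes of 4 members carry the differences described here, so the last 30 of their 60 bases are shown, 5′ to 3′, as the array design gives them. The capitals in the Hes1 probe mark the hexamer AATAAA, the usual polyadenylation signal, which 1 of the 12 member probes and 12.6% of all 39429 probe sequences hold in their 60 bases. Jag1 is shown as the other member with a large bound, and Notch1 and Notch2 are shown so that the probes of a gene can be told from each other.
Hes1: tgagaaaatatAATAAAagagtgaaggctt
Jag1: gaaccgtaaaatgtccagttagatcactgt
Notch2, brighter probe: aaggtgttcagtgttcacgtgtgatttcag
Notch2, dimmer probe: gatgtgaccaccagcccaactcctggaggt
Notch1, brighter probe: aacagtgaagaagaagaagatgcacctgct
Notch1, dimmer probe: aaaagaacgtgacaggagaagggaagctgg
On mm9, the Hes1 probe lies at chr16:30067820-30067879 on the plus strand and the Jag1 probe at chr2:136907433-136907492 on the minus strand. The brighter Notch2 probe lies at chr3:97953914-97953973 and the dimmer one at chr3:97951233-97951292, both on the plus strand. The brighter Notch1 probe lies at chr2:26319440-26319499 and the dimmer one at chr2:26314630-26314689, both on the minus strand. The exon or UTR of each probe was not analysed here. The Jag1 and Notch4 probes each have a stop codon in all 3 reading frames. Of the 12 probes, 0 have 20 bases in a row in common with the probe of a different gene, against 7.19% of all probes.

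Of the members, Hes1 and Jag1 were higher in Sox9+EpCAM- cells by 4-fold or more (Jag1 by under 4-fold with normexp background correction), Notch2 was lower by its brighter probe and higher by its dimmer one, and Notch1, Notch4 and Dll4 were within 2-fold. Jag2 was above background in Sox9+EpCAM- cells only, near the weakest signal that passed, and Notch3, Hey1 and Heyl were not well above background on either array. Thus 4 of 10 members were well above background on both arrays, 3 of 10 in Sox9+EpCAM- cells only, and 0 in MHs only. Of all genes, 63.8% were so on both arrays, 12.0% in Sox9+EpCAM- cells only and 1.90% in MHs only.

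A gene was read by its brighter probe, and a probe not well above background on one array entered by a bound. The bound set the signal on the bright array against the dim signal itself or, where that was lower, against the weakest signal that passed as well above background on the dim array, 27.8 for MHs and 18.4 for Sox9+EpCAM- cells. That weakest signal is not a limit of detection, since some brighter probes did not pass (Notch3 had 21.8 in Sox9+EpCAM- cells). A fold given as a bound is therefore a bound by this rule only. With this rule 2 of the 7 measured members, Jag1 and Hes1, were at least 2-fold higher, where 14.2% of all 23417 measured genes were. The same 2 members were at least 4-fold higher, where 5.59% of all genes were. With normexp background correction, 1 member and 2.61% of all genes were. Notch2, read by its brighter probe, was at least 2-fold lower, against 16.7% of all genes, and 0 members were at least 4-fold lower, against 5.57% of all genes. Since Jag1 and Hes1 were measured only because they were bright in Sox9+EpCAM- cells, these counts were not read as a property of the members. Among the 6 members with a difference the median was -0.16 and the range ran from -1.53 to 4.29, while the median over all genes was -0.12.

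**Figure D1:**
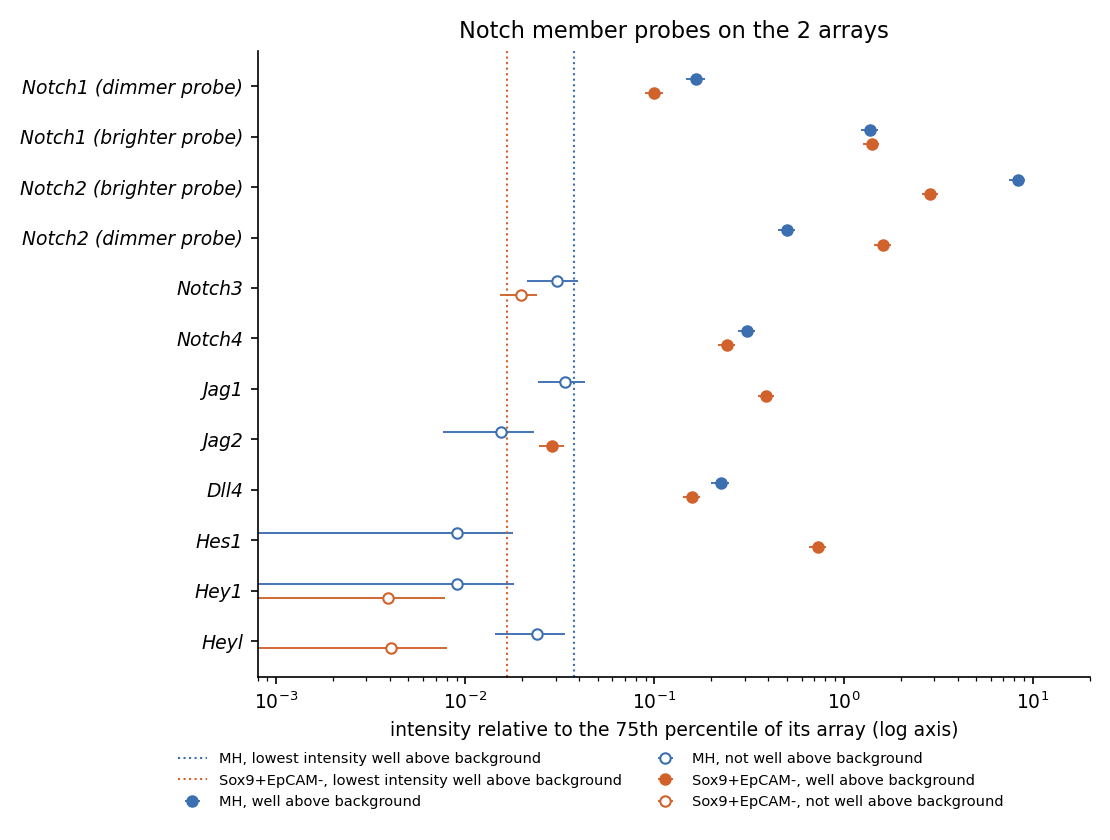
Intensity of each of the 12 member probes relative to the 75th percentile of its array, on a log axis, for the MH array (blue) and the Sox9+EpCAM- array (orange). Filled points were well above background and open points were not, bars are the software's error of the spot (cut at the left edge of the axis), and dotted lines are the lowest intensity well above background on each array. Hes1 and Jag1 are open for MHs and filled for Sox9+EpCAM- cells, and the probes of Notch2 cross over. Levels of different probes cannot be set against each other.

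Among the receptors, Notch2, which is needed for bile duct formation, gave the widest contrast, and its probes moved in opposite directions. The brighter probe had an intensity of 6160 ± 616 in MHs and 3190 ± 319 in Sox9+EpCAM- cells. Its difference was -1.53 ± 0.20 (2.89-fold lower in Sox9+EpCAM- cells). The dimmer probe, which starts 2681 bases upstream, had an intensity of 373 ± 38.0 in MHs and 1790 ± 179 in Sox9+EpCAM- cells. Its difference was 1.68 ± 0.21 (3.20-fold higher in Sox9+EpCAM- cells). Each contrast was larger than its spot error, which is no measured spread, and each passed 2-fold. Hence the arrays give no single direction for Notch2. The median over its probes was 0.074.

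The probes of Notch2 lay 3.21 apart on the log2 scale. Over the 3274 genes with exactly 2 probes well above background on both arrays, the median gap was 0.66 and the 95th percentile 2.74, and 3.12% had a gap at least as large as that of Notch2. Probes that moved at least 2-fold in opposite directions were found for 66 of these genes (2.02%). The probe of Notch2 nearer the 3′ end gave the lower difference, as it did for Notch1. Over the 3231 genes with 2 such probes placed on one chromosome and strand, the 3′ probe was the lower one in 48.9%, and among the 1412 of them whose probes start 1000 to 10000 bases apart it was so in 48.7%. The GC content was 41.7% for the brighter Notch2 probe, equal to the median of all probes, and 55.0% for the dimmer one. Which transcripts each probe binds was not tested.

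**Figure D2:**
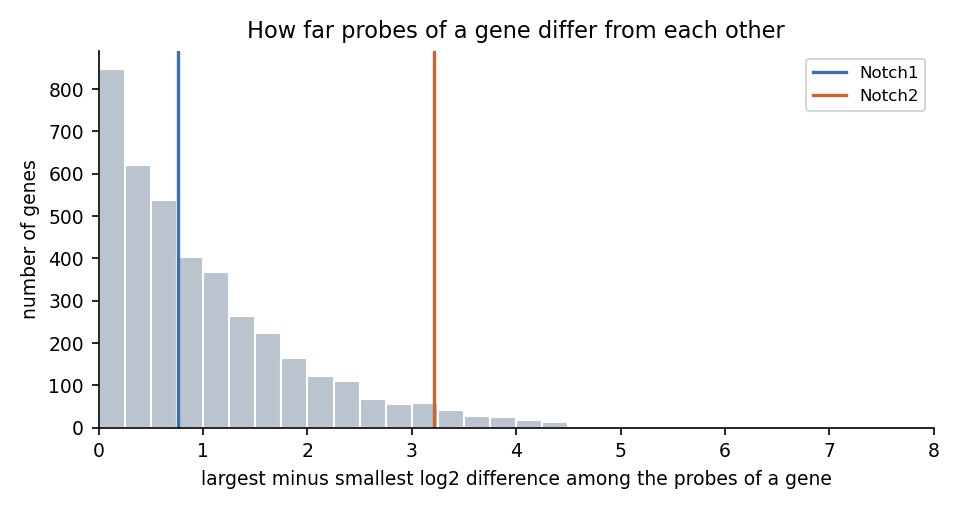
Number of genes (vertical axis) by the gap between the largest and smallest log2 difference among their probes (horizontal axis), for the 4001 genes with 2 or more probes well above background on both arrays. The Notch1 line at 0.76 stands beside the median gap of 0.75, and the Notch2 line at 3.21 stands beyond the 95th percentile of 3.03.

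For Notch1, a receptor with roles in endothelial cells and in cell fate choice, the brighter probe had an intensity of 1020 ± 102 in MHs and 1560 ± 156 in Sox9+EpCAM- cells. After scaling, its difference of 0.03 ± 0.20 was within the spot error, and other scalings gave it either sign, from -0.15 to 0.30. The Gapdh scaling, which gave the highest of these values, rests on the brightest of 8 Gapdh probes, whose differences ran from -0.27 to 0.80, so another Gapdh probe would move all differences by another amount. The dimmer probe, starting 4810 bases away toward the 3′ end, had an intensity of 123 ± 13.7 in MHs and 111 ± 11.8 in Sox9+EpCAM- cells. Its difference was -0.73 ± 0.22 (1.66-fold lower in Sox9+EpCAM- cells), beyond the spot error but short of 2-fold. The gap of 0.76 between these probes was matched or passed by 44.9% of the genes with exactly 2 probes. A probe of 0610009E02Rik, on the opposite strand, starts 150 bases from the dimmer Notch1 probe and had intensities of 136 in MHs and 176 in Sox9+EpCAM- cells.

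Notch4, a receptor best known from endothelial cells, had an intensity of 229 ± 23.9 in MHs and 269 ± 27.3 in Sox9+EpCAM- cells, at chr17:34725120-34725179 on the plus strand. Its difference was -0.35 ± 0.21, and the scalings gave -0.52 to -0.08. Notch3, which is typical of pericytes and smooth muscle, had an intensity of 22.5 ± 6.79 in MHs and 21.8 ± 4.88 in Sox9+EpCAM- cells, at chr17:32257848-32257907 on the minus strand. Neither signal was well above background, so no fold is given.

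Of the 2 ligands with a difference, Jag1 and Dll4, Jag1 differed more. Jag1 is expressed by portal mesenchyme and biliary cells and signals to Notch2 in the formation of bile ducts. The intensity of Jag1 was 24.9 ± 6.98 in MHs, not well above background, and 434 ± 43.6 in Sox9+EpCAM- cells. Against the weakest MH signal that passed, this came to at least 10.4-fold higher in the sorted cells (a bound of 3.38 on the log2 scale). The scalings gave bounds of 3.20 to 3.65. With normexp background correction, which lifts dim signals by a fixed offset, the value was 1.82.

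Jag2, the other Jagged ligand, had an intensity of 11.4 ± 5.75 in MHs, not well above background, and 32.0 ± 4.87, well above background, in Sox9+EpCAM- cells (chr12:114146887-114146946, minus strand). After scaling, the Sox9+EpCAM- signal was below the weakest MH signal that passed, so no fold can be given. Dll4, the Delta-like ligand of endothelial tip cells, had an intensity of 166 ± 17.7 in MHs and 175 ± 18.0 in Sox9+EpCAM- cells (chr2:119160779-119160838, plus strand). Its difference was -0.51 ± 0.21, with -0.69 to -0.24 under the scalings, and was short of 2-fold.

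Hes1, a repressor of the helix-loop-helix family and the classical target of Notch, was the member with the highest bound. Its intensity was 6.67 ± 6.65 in MHs, not well above background and about as large as its own error, and 813 ± 81.4 in Sox9+EpCAM- cells. Relative to the weakest MH signal that passed, this was at least 19.5-fold higher (a bound of 4.29). The bounds were 4.11 to 4.55 under the scalings. The difference was 6.35 where the dim signal was taken as measured, and 2.67 with normexp background correction. An unnamed probe that starts 3184 bases from the Hes1 probe on the same strand had intensities of 645 in MHs and 1240 in Sox9+EpCAM- cells, a difference of 0.36.

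Hey1 and Heyl, the other repressors, did not share this signal. Hey1 (chr3:8663432-8663491, minus strand) had an intensity of 6.74 ± 6.71 in MHs and 4.35 ± 4.33 in Sox9+EpCAM- cells. Heyl (chr4:122926975-122927034, plus strand) had an intensity of 17.8 ± 7.18 in MHs and 4.47 ± 4.45 in Sox9+EpCAM- cells. All of these were under the lowest signal well above background, so the targets split into 1 bright gene and 2 that were not well above background on either array. In bulk RNA, fewer cells that express a gene and less of its RNA per cell cannot be told apart.

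**Figure D3:**
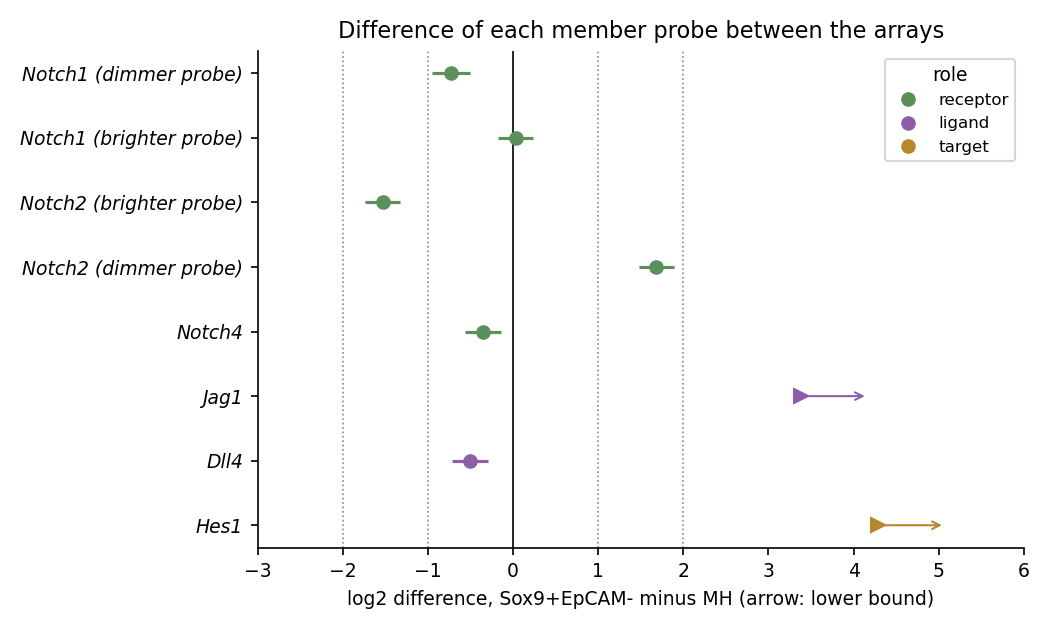
Log2 difference (Sox9+EpCAM- minus MH) of the 8 member probes for which one could be given, coloured by role, with bars for the spot error and dotted lines at 2-fold and 4-fold. Arrows stand for lower bounds and their length has no meaning. Jag1 (3.38) and Hes1 (4.29) lie past 4-fold, and the Notch2 probes lie on opposite sides of 0.

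A wider list of 74 other genes of the pathway was read the same way, of which 73 were on the array and 64 were well above background on at least 1 array. Of these 64, 13 were higher and 7 lower by 2-fold or more in Sox9+EpCAM- cells, while 4 were at least 4-fold higher and 2 at least 4-fold lower. The median of the 61 genes with a difference was 0.19, against -0.12 over all genes, and the scalings moved the median of all genes by -0.18 to 0.27. By count, 20.3% of the measured genes of the list were at least 2-fold higher and 10.9% at least 2-fold lower, against 14.2% and 16.7% of all genes. At 4-fold, the 4 and 2 of 64 genes stand beside 5.59% and 5.57% of all genes. Of the 13 genes, 4 (Snw1, Ep300 and, named after their values were seen, Dtx3 and Ctbp2) entered by a bound, having been measured only because they were bright in Sox9+EpCAM- cells, and 9 were measured on both arrays. With normexp background correction, 7 genes were at least 2-fold higher and 6 at least 2-fold lower, against 8.91% and 13.5% of all genes. The role counts that follow rest on 5 to 21 measured genes each and were not compared with each other.

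Among other targets of the pathway or of biliary cells, 4 of 11 measured genes were at least 2-fold higher and 1 was at least 2-fold lower. Spp1, which encodes the secreted protein osteopontin, had an intensity of 258 in MHs and 47000 in Sox9+EpCAM- cells (6.93, or 122-fold higher). Myc, a growth regulator that is a Notch target in T cells and also an early response gene, had an intensity of 350 in MHs and 32900 in Sox9+EpCAM- cells (5.97, or 62.8-fold higher).

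In the nuclear complex, 5 of 21 measured genes were at least 2-fold higher and 1 was at least 2-fold lower. Rbpj, the DNA-binding partner of all Notch receptors, had an intensity of 1790 in MHs and 5230 in Sox9+EpCAM- cells (0.96, or 1.95-fold higher), and its other probe gave 1.51. Snw1, a coactivator that also acts in splicing, was not well above background in MHs (26.9) and was 359 in Sox9+EpCAM- cells (geometric means of 10 spots), at least 8.63-fold higher. Ep300, a histone acetyltransferase recruited to the complex, was 25.4, not well above background, in MHs and 192 in Sox9+EpCAM- cells, at least 4.61-fold higher. The Mastermind gene Maml3, named after its values were seen, differed by probe, with -0.10 for its brightest probe and 3.55 for another.

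Ligands and related secreted proteins had 2 of 5 measured genes at least 2-fold higher and 1 lower, which was Egfl7, a secreted endothelial protein that binds Notch (587 in MHs and 162 in Sox9+EpCAM- cells, -2.44, or 5.43-fold lower). Of 13 measured genes of trafficking and turnover, 2 were at least 2-fold higher and 1 lower, which was Mib2, a ubiquitin ligase that acts on ligands (149 and 41.6, -2.42, or 5.37-fold lower). Of 6 genes of glycosylation and maturation, 0 were at least 2-fold higher and 2 lower. Of 8 genes of cleavage, 0 were at least 2-fold higher and 1 lower.

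**Figure D4:**
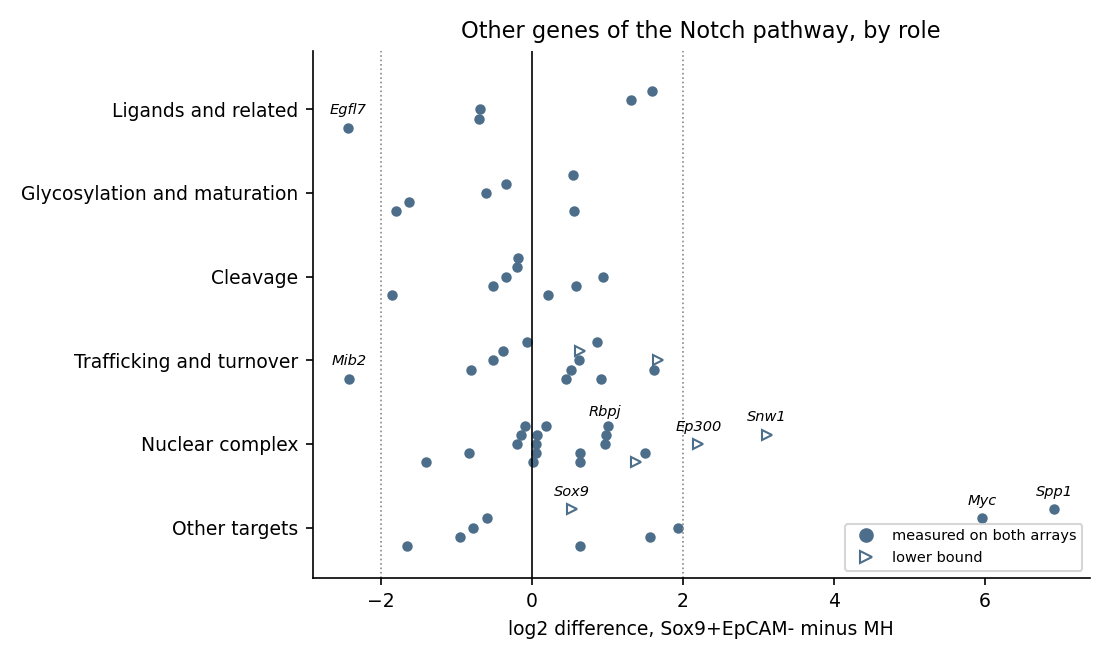
Log2 difference (Sox9+EpCAM- minus MH, horizontal axis) of each gene of the wider Notch list that had one, by role (rows, with points spread vertically for legibility). Filled points were measured on both arrays, open triangles are lower bounds and dotted lines mark 4-fold. Spp1 (6.93) and Myc (5.97) stand far to the right, and Egfl7 (-2.44) and Mib2 (-2.42) are past 4-fold on the left.

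Markers of other cells that each RNA could hold moved with the arrays. Of 14 endothelial genes, 13 were measured, 0 were higher and 8 lower by 2-fold or more in Sox9+EpCAM- cells, their median was -2.23, and their summed level, as a multiple of the 75th percentile, was 10.2 in MHs and 3.48 in Sox9+EpCAM- cells. Such sums, here and below, are weighted toward the brightest probes. They are not amounts of RNA, because levels of different probes cannot be set against each other. Stab2, a receptor of sinusoidal endothelium, had intensities of 1010 in MHs and 187 in Sox9+EpCAM- cells. Cdh5, the cadherin of endothelial junctions, was 103 in MHs and 8.90, not well above background, in Sox9+EpCAM- cells. Pecam1, a general endothelial surface protein, was 669 in MHs and 594 in Sox9+EpCAM- cells (-0.75). These values lie beside those of Notch1, Notch4 and Dll4, and their part in them was not tested.

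Of 14 mesenchymal genes, 13 were measured, 6 were at least 2-fold higher and 2 at least 2-fold lower, their median was 0.76, and the summed level was 5.67 in MHs and 45.1 in Sox9+EpCAM- cells. Named after their values were seen, the matrix genes Col3a1 (175 and 22300), Col1a2 (377 and 8700), Eln (7.0, not well above background, and 5570) and Mgp (21.6, not well above background, and 5390) gave most of the Sox9+EpCAM- sum. The genes that were lower were Lrat of stellate cells (94.6 and 3.74, the latter not well above background) and Rgs5 of pericytes (371 and 117). Col1a1, the fibrillar collagen of fibroblasts, had intensities of 82.6 and 2630 (4.41, or 21.3-fold higher), whereas Acta2, the actin of myofibroblasts, was 85.4 and 171 (0.42) and Pdgfrb, a receptor of stellate cells, was not well above background on either array (6.16 and 4.14). Of 14 ductal genes, 13 were measured, 6 were at least 2-fold higher and 2 at least 2-fold lower, their median was 0.80, and the summed level was 5.41 in MHs and 15.8 in Sox9+EpCAM- cells. Krt19, a keratin of cholangiocytes, had intensities of 73.1 and 146 (0.42), in contrast to Epcam. The part of mesenchymal and ductal RNA in the values of Jag1 and Hes1 was not tested.

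Of 12 hepatocyte genes, 0 were at least 2-fold higher and 7 at least 2-fold lower, with a median of -1.06 and a summed level of 1421 in MHs and 633 in Sox9+EpCAM- cells. Of 12 leukocyte genes on the array, 11 were measured, 1 was at least 2-fold higher and 6 at least 2-fold lower, with a median of -1.80 and a summed level of 166 and 92.1. Most of that sum came from the probe of Itgam, named after its values were seen, which shares 20 bases in a row with probes of 23 other genes, and without it the sums were 41.5 and 15.8. Ptprc, the pan-leukocyte CD45, had intensities of 195 and 248 (-0.24). All 10 immediate early genes, which respond to handling and stress of cells within minutes, were higher in Sox9+EpCAM- cells by 4-fold or more. Their median was 4.58 and their summed level was 30.4 in MHs and 383 in Sox9+EpCAM- cells. The part of this response in the values of Hes1 and Myc was not tested.

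**Figure D5:**
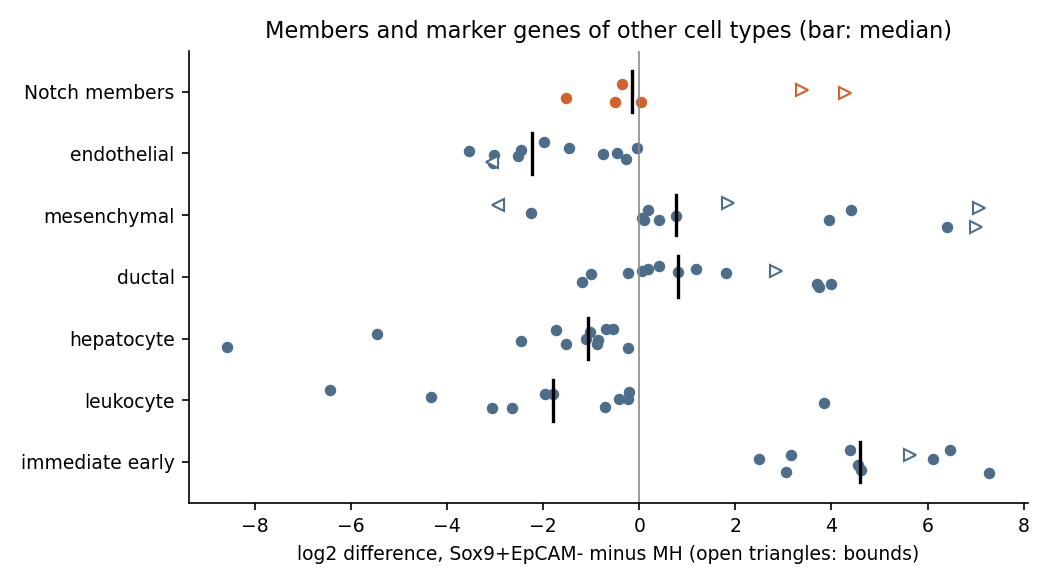
Log2 difference (Sox9+EpCAM- minus MH, horizontal axis) of the 6 members with a difference (orange) and of marker genes of other cell types and of the immediate early response (blue), with a bar at each median and triangles for bounds. The endothelial genes lie at or below -0.05, all 10 immediate early genes lie at or above 2.49, and the members spread from -1.53 to 4.29.

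Promoter windows of 250 bases upstream of the start were searched on both strands for TGGGAA, the core of the RBPJ motif, in RefSeq sequences of GRCm38.p6. It was found in 0 of the 7 members with an entry, namely the 4 receptors and Jag1, Jag2 and Dll4, and in 21.6% of all 32851 promoters. Hes1, Hey1 and Heyl have no entry in the table used here.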

How the data were processed

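RNA of 1 sample of MHs and 1 sample of Sox9+EpCAM- cells was measured on 1-colour Agilent arrays. Samples were grouped by GEO's labels. The authors deposited scanner tables from Feature Extraction 10.7.3.1 with the processed intensity of each spot (background subtracted, no normalization between arrays), its error, the mean intensity, the local background intensity and quality flags, and a value table of linear ratios, which equal the processed intensity divided by the median of the array (SD of the log2 factor 0.0018 on each array). Probe coordinates are those of the array design on mm9. Columns of sample values left unused numbered 0.

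Intensities were divided by the 75th percentile of the array and taken to log2, 276 outlier spots were left out (0 of them of members), and repeat spots averaged on the log2 scale, giving 39390 probes. The probe with the highest mean stood for a gene. All 10 symbols matched the RefSeq table (GRCm38.p6) by accession. With 1 array per group, folds of 2 and 4 served as the rule of size and nothing was tested. Every probe of the members was named. Of the wider list, genes past 4-fold and Rbpj, Sox9 and Spp1 were named (1 further gene is not reported here), and of the markers a set of defining genes. Neighbouring probes were named after their values were seen, as was the hexamer. The members and lists were chosen with earlier results of these data known. The procedure was tested on simulated data. Of the alternatives tried, 9 covered background correction (normexp, offset 50), scaling, probe choice, bounds and outliers, and 2 more probe choices were added after the data were seen. Python 3.11.15 with pandas 2.3.3, numpy 2.4.6 and matplotlib 3.10.9, and R 4.3.3 with limma 3.58.1, were used.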

Additional observations from a re-analysis of the deposited data

How the results depend on the processing

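Differences of the members and counts of calls were recomputed under each alternative. Of the values, 102 stayed within 1.5-fold of the value given, 11 moved further and 3 reversed. The 102 include values that an alternative could not change, so their number is no measure of robustness. No member spot was an outlier, and a choice of probe changes nothing for a gene with 1 probe. The bound plays no part for a probe well above background on both arrays. Of the 102 values, 2 had the opposite sign, both of Notch1 (-0.15 with the deposited value table and -0.35 with the median of all probes). For Notch2, the median of all probes gave 0.074 and the other probe, which is also the one with the largest difference, gave 1.68, so that 0 members were at least 2-fold lower under the median and under the probe with the largest difference. The latter gave 3 members and 17 genes of the wider list at least 2-fold higher, against 2 and 13. Taking the most different probe favours larger differences for any gene with several probes. The share of all genes under these choices of probe was not computed, so the counts were not read as a result about Notch genes. For Notch1, the other probe, again the one with the largest difference, gave -0.73. These choices of the other or the most different probe were made after the data were seen. Normexp background correction gave 1.82 for Jag1 and 2.67 for Hes1, 1 member at least 4-fold higher, and 7 genes of the wider list at least 2-fold higher, while the share of all genes at least 2-fold higher fell from 14.2% to 8.91%. Without a bound, Hes1 gave 6.35. With only genes above background on both arrays, 0 members were at least 2-fold higher and 0 at least 4-fold higher, since Jag1 and Hes1 are then left out. Scaling to the brightest Gapdh probe (-0.27, where its 8 probes ran up to 0.80) moved the median of all genes by 0.27 and the deposited value table by -0.18; genes at least 2-fold higher and lower then numbered 4375 and 2888, and 2785 and 4906, against 3319 and 3918. At least 4-fold higher and lower were 612 and 660 genes with normexp correction, against 1309 and 1304, 1650 and 1006 with Gapdh, and 1130 and 1563 with the deposited table. Beyond the construction of an alternative, the cause was not tested. With 1 array a group, neither a fit with the slide as a block nor one without a replicate was run. No paired analysis was possible because only 1 replicate number exists. No probe under 27.8 in MHs or 18.4 in Sox9+EpCAM- cells was well above background. Hence Hes1 and Jag1 have only a bound and Jag2 has no fold. Those values are not limits of detection, since some brighter probes did not pass either. Notch3 had 21.8 in Sox9+EpCAM- cells, and Helt of the wider list, named after its values were seen, had 28.5 in MHs. Notch3, Hey1 and Heyl were not well above background on either array.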

Other observations

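A probe of Gpsm3, a G protein regulator, starts 3517 bases from the Notch4 probe on the same strand. It had intensities of 326 in MHs and 358 in Sox9+EpCAM- cells, a difference of -0.45 beside -0.35 for Notch4.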
